A study of Mus musculus with 8 samples.

Results

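The 38 genes described here encode plasma proteins of blood coagulation and of complement that the liver secretes. The list was a set of names chosen by protein function, 22 for coagulation and fibrinolysis and 16 for complement, and all 38 were found among the 19267 genes of the liver count table. The choice was made with earlier results of these data known. Both systems are chains of proteases that circulate as inactive precursors and cut each other in turn. In coagulation the chain ends with thrombin, which turns fibrinogen into fibrin, and plasmin later dissolves the clot. In complement, the classical, lectin and alternative pathways meet at C3 and end with a pore built from C5b, C6, C7, C8 and C9. Hepatocytes are the main source of most of these proteins, and the plasma levels of clotting factors are a classical measure of the synthetic function of the liver.

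Livers came from male C57BL/6 mice that were 6 weeks old at the start and 9 weeks old at sampling. *Elf4-/-* stands for Elf4fl/fl-Villin-Cre mice, in which Cre under the villin promoter removes the transcription factor gene *Elf4* from intestinal epithelium, so the deletion is directed to the intestine and not to hepatocytes. WT mice served as controls and also carried Cre. All animals took a Lieber-DeCarli liquid diet for 21 days, with 5% (w/v) alcohol in the EtOH groups and isocaloric maltose dextrin in the Control groups, and the pairs were fed matched amounts. Each of the 4 groups held 2 libraries, and they are called WT-Control and WT-EtOH for WT and *Elf4-/-*-Control and *Elf4-/-*-EtOH for the knockout. No source states that the libraries of a group came from separate animals, so p-values measure only the spread between these libraries, which may be technical.

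Library totals ran from 6171051 to 9157362 counts. Values below are CPM, counts per 1000000 of the library total after TMM scaling, which sets the libraries to a common level over most genes. A member was called when its adjusted p was under 0.05 in edgeR's quasi-likelihood test, adjusted by Benjamini-Hochberg over the 13993 genes tested, and all 38 members passed the filter on low counts. The hepatocyte markers *Alb*, *Apoa1*, *Ttr*, *Apob*, *Cps1* and *Tat*, which define the labelled tissue, summed to at least 31190 CPM in every library. The share of counts from the mitochondrial genome was 23.4% and 33.7% for WT-Control but 10.8% and 12.5% for WT-EtOH, and lay between 18.3% and 22.1% for the *Elf4-/-* libraries. In *Elf4-/-*-EtOH the replicates of *F11* and *C9* differed by 1.0 and 2.16 on the log2 scale, the largest differences within a group among the coagulation and the complement genes.

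Per kb of exon, the coagulation gene with the highest level was *Kng1*, which encodes kininogen, the carrier of prekallikrein and factor XI and the precursor of bradykinin. The exon length of a gene was that of all its annotated exons merged, so orders and ratios per kb depend on the annotation. *Kng1* measured 932 and 1035 CPM per kb in WT-Control against 775 and 662 in WT-EtOH, and 712 and 878 CPM per kb in *Elf4-/-*-Control against 619 and 675 in *Elf4-/-*-EtOH. The WT-EtOH libraries lay below the WT-Control libraries, and the *Elf4-/-*-EtOH libraries below the *Elf4-/-*-Control libraries. Its diet difference did not pass the test in either genotype (log2 fold change -0.45 ± 0.27 SE in WT and -0.30 ± 0.27 SE in *Elf4-/-*, edgeR adjusted p = 0.249 and 0.559). The fibrinogen chains *Fgb* and *Fgg* followed, with means over the 8 libraries of 674 and 650.0 CPM per kb, while the third chain, *Fga*, had 276. The lowest coagulation level was that of *Pros1*, which encodes protein S, the cofactor of activated protein C, at 14.4 CPM per kb. Among complement genes the highest level was that of *C3*, the protein on which all pathways meet, with a mean of 523 CPM per kb, and *C4b* (239.9) and the mannose-binding lectin *Mbl2* (238) followed. The lowest were *C2* at 7.78 and *Cfb* at 0.645 CPM per kb. *Cfb*, the protease subunit of the alternative pathway convertase, had only 5 to 24 counts in a library. Of its exon bases, 79.5% are shared on the same strand with the gene model Gm20547, which also covers 42.8% of the exon bases of *C2* and is not analysed here, so the counts of both genes are uncertain.

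**Figure D1:**
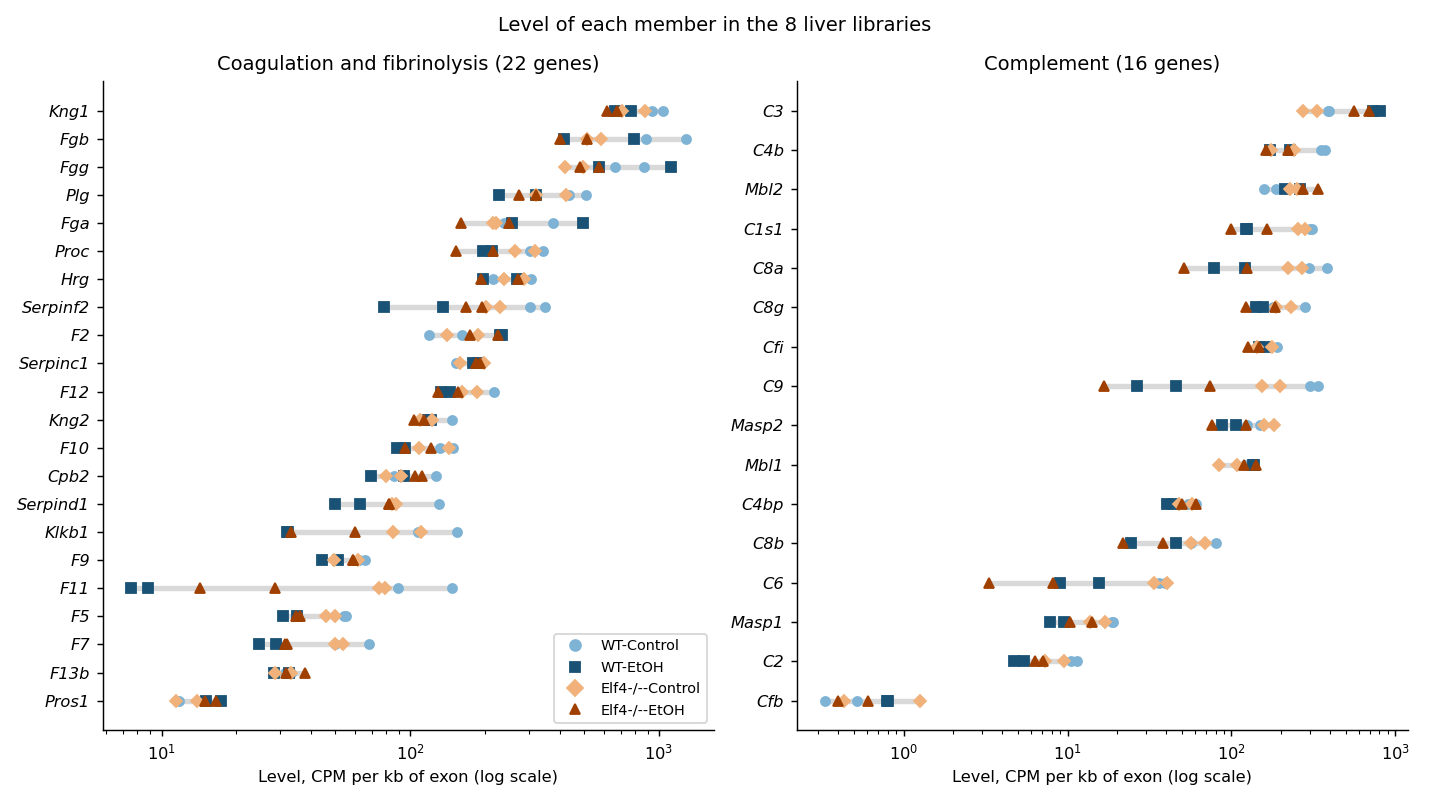
Level of each of the 22 coagulation and 16 complement genes in the 8 liver libraries, as CPM per kb of exon on a log axis, with 1 point per library coloured and shaped by group. Genes are ordered by their mean, from *Kng1* and *C3* at the top to *Pros1* and *Cfb* at the bottom, and the widest spreads belong to *F11*, *C9* and *C6*.

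The first comparison asked what the alcohol diet did to the coagulation genes in WT livers. Of 22 genes, 6 were lower and 0 higher in WT-EtOH than in WT-Control, or 27.3% called, where 21.6% of all genes tested were called in either direction and 10.8% were lower. The 6 were *F11*, *Klkb1*, *Serpinf2*, *F7*, *Serpind1* and *F5*. The median log2 fold change of the 22 genes was -0.44, and that of all genes tested was 0.01. In CPM, 12 of the 22 had both EtOH libraries below both Control libraries and 2 had both above, against 32.7% and 34.1% of all genes.

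Among the protease precursors, *F11* had the largest fall. *F11* encodes factor XI, which thrombin or factor XIIa activates and which in turn activates factor IX. The gene occupies bases 45241174 to 45262031 of chromosome 8 (GRCm38, minus strand). *F11* measured 329.5 and 201 CPM in WT-Control against 19.7 and 16.8 in WT-EtOH, and 168 and 178 CPM in *Elf4-/-*-Control against 64.1 and 32.0 in *Elf4-/-*-EtOH. Within each genotype the EtOH and Control libraries were far apart, and both *Elf4-/-*-EtOH libraries lay above both WT-EtOH libraries. The fall was 14.5-fold in WT (log2 fold change -3.86 ± 0.37 SE, edgeR adjusted p = 0.000802) and 3.60-fold in *Elf4-/-* (-1.85 ± 0.34 SE, adjusted p = 0.0274). Next to it on the same strand, 4.7 kb away at 45266689 to 45294859, lies *Klkb1*, the gene of prekallikrein, which factor XIIa turns into kallikrein. *Klkb1* measured 806 and 564 CPM in WT-Control against 168 and 169.5 in WT-EtOH, and 447 and 581 CPM in *Elf4-/-*-Control against 174 and 315 in *Elf4-/-*-EtOH. No EtOH library reached the Control libraries of its genotype, and the fall of 4.06-fold in WT was called (-2.02 ± 0.32 SE, edgeR adjusted p = 0.00383) while the value in *Elf4-/-* was not (-1.07 ± 0.32 SE, adjusted p = 0.0931). Of the exon bases of *Klkb1*, 43.2% are shared on the same strand with the gene model Gm45753, not analysed here.

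*F7* and *F5* completed the called protease precursors and cofactors. *F7* encodes factor VII, which starts clotting with tissue factor, and lies on chromosome 8 at 13026034 to 13035809 on the plus strand. *F7* measured 92.7 and 127 CPM in WT-Control against 53.7 and 45.9 in WT-EtOH, and 92.4 and 99.9 CPM in *Elf4-/-*-Control against 58.5 and 59.4 in *Elf4-/-*-EtOH. All 4 EtOH libraries lay below all 4 Control libraries. The fall in WT was 2.21-fold (-1.14 ± 0.21 SE, edgeR adjusted p = 0.00611), and the *Elf4-/-* value was -0.70 ± 0.21 SE (adjusted p = 0.0925). *F5*, on chromosome 1 at 164151838 to 164220277 on the plus strand, encodes factor V, the cofactor with which factor Xa makes thrombin. *F5* measured 401 and 410.3 CPM in WT-Control against 259.5 and 228 in WT-EtOH, and 339 and 371 CPM in *Elf4-/-*-Control against 259 and 267 in *Elf4-/-*-EtOH. Here too the EtOH libraries of both genotypes lay below every Control library, with values of -0.73 ± 0.21 SE in WT (edgeR adjusted p = 0.0318) and -0.43 ± 0.20 SE in *Elf4-/-* (adjusted p = 0.259).

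Of the other 5 precursors and cofactors, none passed the test in either genotype. *F2*, the gene of prothrombin, had a WT value of 0.72 ± 0.27 SE (edgeR adjusted p = 0.0860), with 546 and 744 CPM in WT-Control against 1069 and 1057 in WT-EtOH. *F10*, the gene of factor X, which starts 1.5 kb beyond *F7*, had -0.61 in WT and -0.22 in *Elf4-/-*. *F9* had -0.42 and 0.08, *F12* had -0.36 and -0.28, and *F13b*, the carrier subunit of the clot-stabilising factor XIII, had -0.09 and 0.17 on the same log2 scale.

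None of the 3 fibrinogen chain genes was called. They lie side by side on chromosome 3 and their products are assembled into a single molecule. *Fgb* measured 3373 and 4888 CPM in WT-Control against 3021 and 1580.0 in WT-EtOH, or -0.84 ± 0.36 SE on the log2 scale (edgeR adjusted p = 0.120). *Fga* (0.29 ± 0.37 SE, adjusted p = 0.597) and *Fgg* (0.13 ± 0.34 SE, adjusted p = 0.805) overlapped between the diets. Per kb, *Fgb* was 1.61 to 3.74 times *Fga* and *Fgg* was 1.89 to 3.0 times *Fga* over the 8 libraries. WT-EtOH replicate 1 had higher CPM than replicate 2 for each chain, by 0.97 on the log2 scale for *Fgg*. In *Elf4-/-* the diet values of the chains ran from -0.27 to 0.21.

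Inhibitors and fibrinolysis gave 2 of the 6 calls. *Serpinf2* encodes alpha-2-antiplasmin, the main plasma inhibitor of plasmin, on chromosome 11 at 75431732 to 75439591 on the minus strand. *Serpinf2* measured 701 and 809 CPM in WT-Control against 314.5 and 182 in WT-EtOH, and 469 and 535 CPM in *Elf4-/-*-Control against 451 and 390.4 in *Elf4-/-*-EtOH. The groups did not overlap in either genotype, and the gap was wide in WT and narrow in *Elf4-/-*. The fall in WT was 3.04-fold (-1.61 ± 0.29 SE, edgeR adjusted p = 0.00578), and the *Elf4-/-* value was -0.25 ± 0.28 SE (adjusted p = 0.648). *Serpind1* encodes heparin cofactor II, a thrombin inhibitor, on chromosome 16 at 17331371 to 17343575 on the plus strand. *Serpind1* measured 186 and 286 CPM in WT-Control against 137 and 109 in WT-EtOH, and 185 and 192 CPM in *Elf4-/-*-Control against 180.1 and 179.8 in *Elf4-/-*-EtOH. Only the WT-EtOH libraries stood apart from the other 6, with -0.94 ± 0.25 SE in WT (edgeR adjusted p = 0.0249) and -0.07 ± 0.25 SE in *Elf4-/-* (adjusted p = 0.905).

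The remaining inhibitors, contact proteins and fibrinolytic genes were not called. *Serpinc1*, the gene of antithrombin, had 1301 to 1692 CPM over the 8 libraries and values of 0.13 ± 0.25 SE in WT and 0.07 ± 0.25 SE in *Elf4-/-*. *Proc*, the gene of protein C, had near-equal values of -0.65 and -0.66 (edgeR adjusted p = 0.0912 and 0.174), and *Pros1* had 0.30 and 0.31. *Plg*, the gene of plasminogen, had -0.79 ± 0.28 SE in WT (adjusted p = 0.0708) and -0.33 ± 0.28 SE in *Elf4-/-*. Exons of *Slc22a3* on the opposite strand cover 11.3% of the exon bases of *Plg*. Counts of *Slc22a3* were 70.0% to 86.1% of those of *Plg*, and the strand setting is not stated, so the *Plg* values are uncertain. *Cpb2*, whose product protects fibrin from plasmin, had -0.38 and 0.34, and the kininogen paralog *Kng2* and the histidine-rich glycoprotein gene *Hrg* lay between -0.18 and -0.09 in both genotypes. The 6 genes whose proteins need vitamin K to bind calcium (*F2*, *F7*, *F9*, *F10*, *Proc*, *Pros1*) gave 1 call in WT, or 16.7%, where 21.6% of all genes were called, and their WT values ran from -1.14 to 0.72.

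In *Elf4-/-* livers, 1 of 22 coagulation genes, *F11*, was lower after EtOH and 0 were higher, where 1.18% of all genes tested were lower, 1.71% higher and 2.89% called in all. The median was -0.20, and that of all genes 0.01. The diet values of WT and *Elf4-/-* were both negative for 14 genes, both positive for 4 and opposite for 4, and 17 of 22 were smaller in size in *Elf4-/-*. The shares of all genes with these signs and sizes were not computed, so the counts are not shown to be particular to these genes. Over all genes tested, 21.6% were called in WT and 2.89% in *Elf4-/-*. Of the 22 genes, 8 had both EtOH libraries below both Control libraries in each genotype, and 1, *Pros1*, had both above, where 17.1% and 17.2% of all genes tested did so. In *Elf4-/-* alone, 26.3% of all genes lay wholly below and 25.8% wholly above. The contrasts of the genotypes use different libraries but a shared estimate of the spread.

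**Figure D2:**
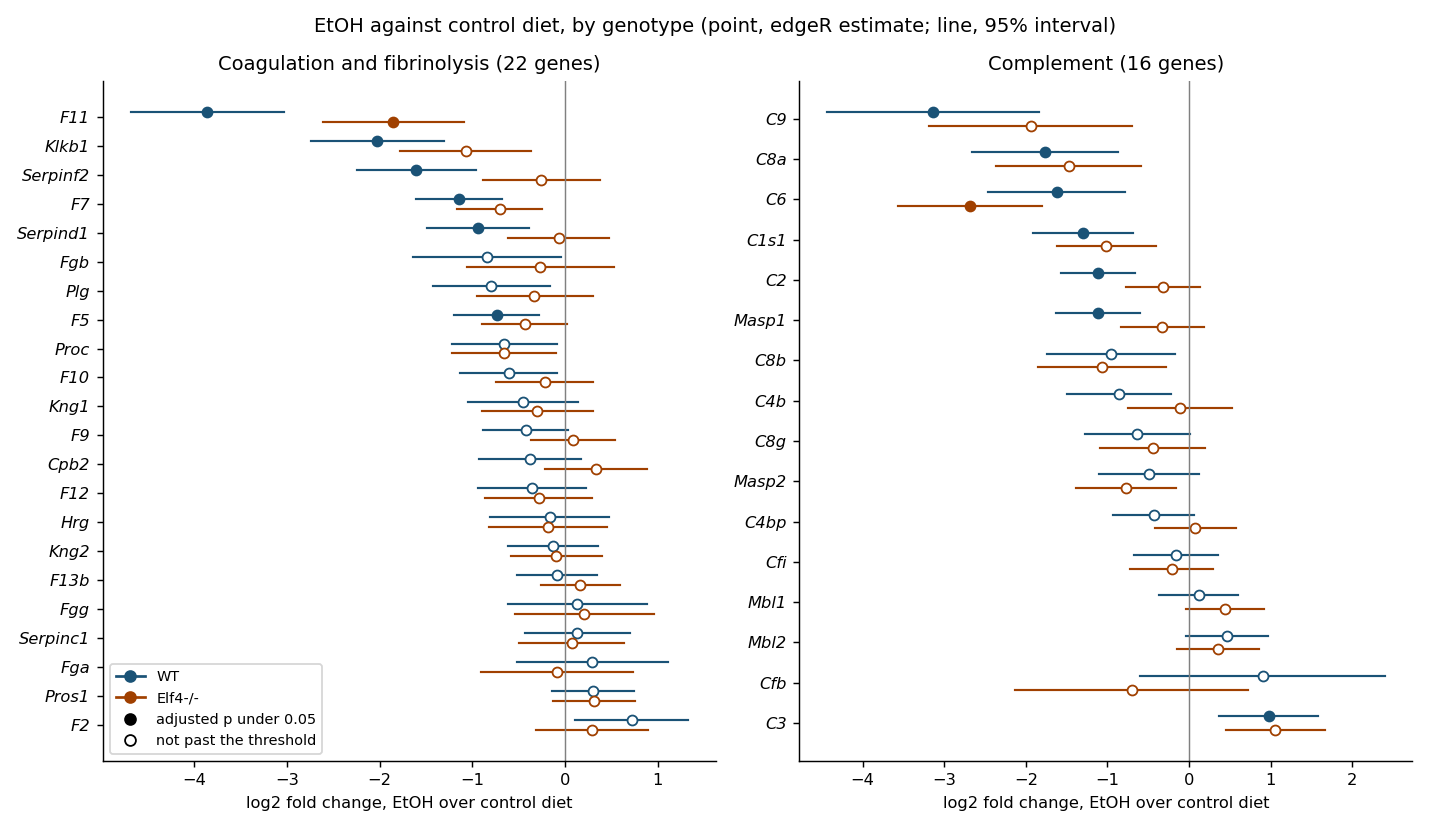
Log2 fold change of EtOH over control diet for each gene in WT and *Elf4-/-*, with the edgeR estimate as a point, its 95% interval as a line and filled points where the adjusted p was under 0.05. In WT, *F11* (-3.86) and *C9* (-3.14) lie farthest to the left and *C3* (0.97) is the only filled point to the right of 0; in *Elf4-/-* only *F11* and *C6* are filled.

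The coagulation calls changed when libraries were left out and with scaling. Outside the main edgeR fit and DESeq2, the share of all genes called is not given. The changed counts can therefore not be told apart from a change over all genes. Without WT-EtOH replicate 2 only 2 genes were called in WT (*F11* and *Klkb1*), and without *Elf4-/-*-EtOH replicate 2 the count was 10, with 9 lower and 1 higher, as it was with DESeq2, which called 20.1% of all genes. *F7* and *Serpinf2* lost their calls in WT only without WT-EtOH replicate 2, while *F5* kept its call only without *Elf4-/-*-EtOH replicate 1 or 2 and *Serpind1* only without one of these or WT-Control replicate 1. With libraries scaled to their totals alone, which moved the median of all genes by 0.43, the WT calls were 2 higher (*F2* and *Pros1*) and 4 lower, without *F5* and *Serpind1*, and the median of the 22 was -0.01 against 0.44 for all genes. In *Elf4-/-*, the call of *F11* was lost without either WT-EtOH library or either *Elf4-/-*-Control library, with a count of 0, and the count was 3 without *Elf4-/-*-EtOH replicate 2.

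For complement, the same question in WT gave 6 genes lower and 1 higher of 16, or 43.8% called, against 10.8% lower, 10.8% higher and 21.6% in either direction among all genes tested. The genes that fell were *C9*, *C8a*, *C6*, *C1s1*, *C2* and *Masp1*, and the gene that rose was *C3*. The median log2 fold change was -0.75, and that of all genes tested 0.01. In CPM, 11 of 16 genes had both EtOH libraries below both Control libraries, 4 had both above, and only *Cfi* overlapped, where 32.7% and 34.1% of all genes lay wholly below and above.

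The largest falls were in the terminal pathway, whose proteins form the membrane pore. The 5 members of this step, *C6*, *C8a*, *C8b*, *C8g* and *C9*, are shown by the sequence before the start site of *C6*, *C8a* and *C9*, the called members, beside *F11*, the coagulation gene with the largest fall, and *C3*, which went the other way. These are up to 250 bases upstream of the start, 5′ to 3′ on the strand of the gene, from RefSeq on GRCm38.p6, at chr15:4726960-4727174 (plus), chr4:104876399-104876648 (minus), chr15:6445096-6445326 (plus), chr8:45262032-45262281 (minus) and chr17:57228137-57228386 (minus) in that order. Capitals mark matches, on either strand, to GTTAAT (bound by HNF1), AAAGTCC (bound by HNF4A) or ATTGC (bound by C/EBP), factors that are known to drive genes of hepatocytes.
C6: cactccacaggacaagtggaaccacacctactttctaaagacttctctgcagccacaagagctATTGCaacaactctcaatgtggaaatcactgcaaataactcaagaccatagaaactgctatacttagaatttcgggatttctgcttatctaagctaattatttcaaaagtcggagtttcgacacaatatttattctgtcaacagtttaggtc
C8a: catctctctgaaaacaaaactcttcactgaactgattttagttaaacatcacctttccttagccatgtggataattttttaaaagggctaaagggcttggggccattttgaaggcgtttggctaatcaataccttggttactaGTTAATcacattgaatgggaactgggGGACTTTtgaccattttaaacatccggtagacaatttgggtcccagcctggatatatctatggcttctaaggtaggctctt
C9: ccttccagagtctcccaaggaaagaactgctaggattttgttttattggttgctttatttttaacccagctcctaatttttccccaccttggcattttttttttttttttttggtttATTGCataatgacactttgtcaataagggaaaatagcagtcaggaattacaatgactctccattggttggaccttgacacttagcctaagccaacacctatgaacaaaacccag
F11: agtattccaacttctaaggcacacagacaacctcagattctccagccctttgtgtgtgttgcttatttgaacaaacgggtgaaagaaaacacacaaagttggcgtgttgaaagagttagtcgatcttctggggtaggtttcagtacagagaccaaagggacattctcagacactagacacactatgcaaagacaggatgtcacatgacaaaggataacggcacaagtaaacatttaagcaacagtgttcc
C3: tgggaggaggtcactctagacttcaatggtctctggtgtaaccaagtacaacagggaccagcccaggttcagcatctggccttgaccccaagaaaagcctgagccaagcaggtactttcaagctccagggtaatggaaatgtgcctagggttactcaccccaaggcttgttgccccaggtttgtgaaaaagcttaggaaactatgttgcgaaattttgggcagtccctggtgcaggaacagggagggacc
*C6* and *C9* each hold 1 match to ATTGC, *C8a* holds 1 match to GTTAAT and 1 to AAAGTCC, and *F11* and *C3* hold no match in these letters. A RefSeq window was used for 30 of the 38 genes and not for *C2*, *C4b*, *Cfb*, *Cfi*, *Kng1*, *Masp1*, *Plg* and *Proc*. *Proc* was left out by hand before the search, so its absence does not show that it lacks a window. The 27025 genes compared below were not filtered in this way. Over the whole RefSeq windows of 250 bases, 1 a gene, GTTAAT was in 3 of 19 coagulation and 3 of 11 complement genes, against 6.52% of 27025 genes. AAAGTCC was in 0 and 1, against 3.65%, and ATTGC in 6 and 3, against 23.3%. These windows can reach past the start of the gene in GENCODE, and the matches of *Fga* (GTTAAT) and *Kng2* (ATTGC) lay in such bases. A match describes the letters and was not tested as a binding site.

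*C9*, the protein that polymerises into the wall of the pore, lies on chromosome 15 at 6445327 to 6498751. *C9* measured 771 and 859 CPM in WT-Control against 118 and 68.1 in WT-EtOH, and 391 and 502 CPM in *Elf4-/-*-Control against 42.4 and 190.1 in *Elf4-/-*-EtOH. Every EtOH library lay below every Control library, and the replicates of *Elf4-/-*-EtOH were the farthest apart. The fall in WT was 8.79-fold (-3.14 ± 0.58 SE, edgeR adjusted p = 0.00664), and the *Elf4-/-* value of -1.94 ± 0.56 SE was not called (adjusted p = 0.0876).

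*C8a*, on chromosome 4 at 104815679 to 104876398, encodes the alpha chain of C8, which inserts into the membrane. *C8a* measured 1391 and 1079 CPM in WT-Control against 441 and 286 in WT-EtOH, and 801 and 980.2 CPM in *Elf4-/-*-Control against 188 and 452 in *Elf4-/-*-EtOH. The diets did not overlap in either genotype, with a fall of 3.40-fold in WT (-1.76 ± 0.40 SE, edgeR adjusted p = 0.0148) and -1.48 ± 0.40 SE in *Elf4-/-* (adjusted p = 0.0763). *C6*, on chromosome 15 at 4727175 to 4814967, encodes the protein that binds C5b first in the assembly. *C6* measured 139.5 and 129 CPM in WT-Control against 55.1 and 32.0 in WT-EtOH, and 121 and 144 CPM in *Elf4-/-*-Control against 11.8 and 29.1 in *Elf4-/-*-EtOH. Both *Elf4-/-*-EtOH libraries lay below both WT-EtOH libraries, while the Control libraries of the genotypes overlapped. The fall was 3.08-fold in WT (-1.62 ± 0.38 SE, edgeR adjusted p = 0.0154) and 6.43-fold in *Elf4-/-* (-2.69 ± 0.39 SE, adjusted p = 0.0150), the only complement call in that genotype. The other C8 chains had EtOH libraries below Control libraries in both genotypes without passing the test, with -0.96 and -1.07 for *C8b*, the neighbour of *C8a*, and -0.64 and -0.44 for *C8g*. Summed over the 5 genes, the level ran from 2694 to 2712 CPM in WT-Control and 658 to 965 in WT-EtOH, and from 1737 to 2147 in *Elf4-/-*-Control and 481 to 1044 in *Elf4-/-*-EtOH.

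**Figure D3:**
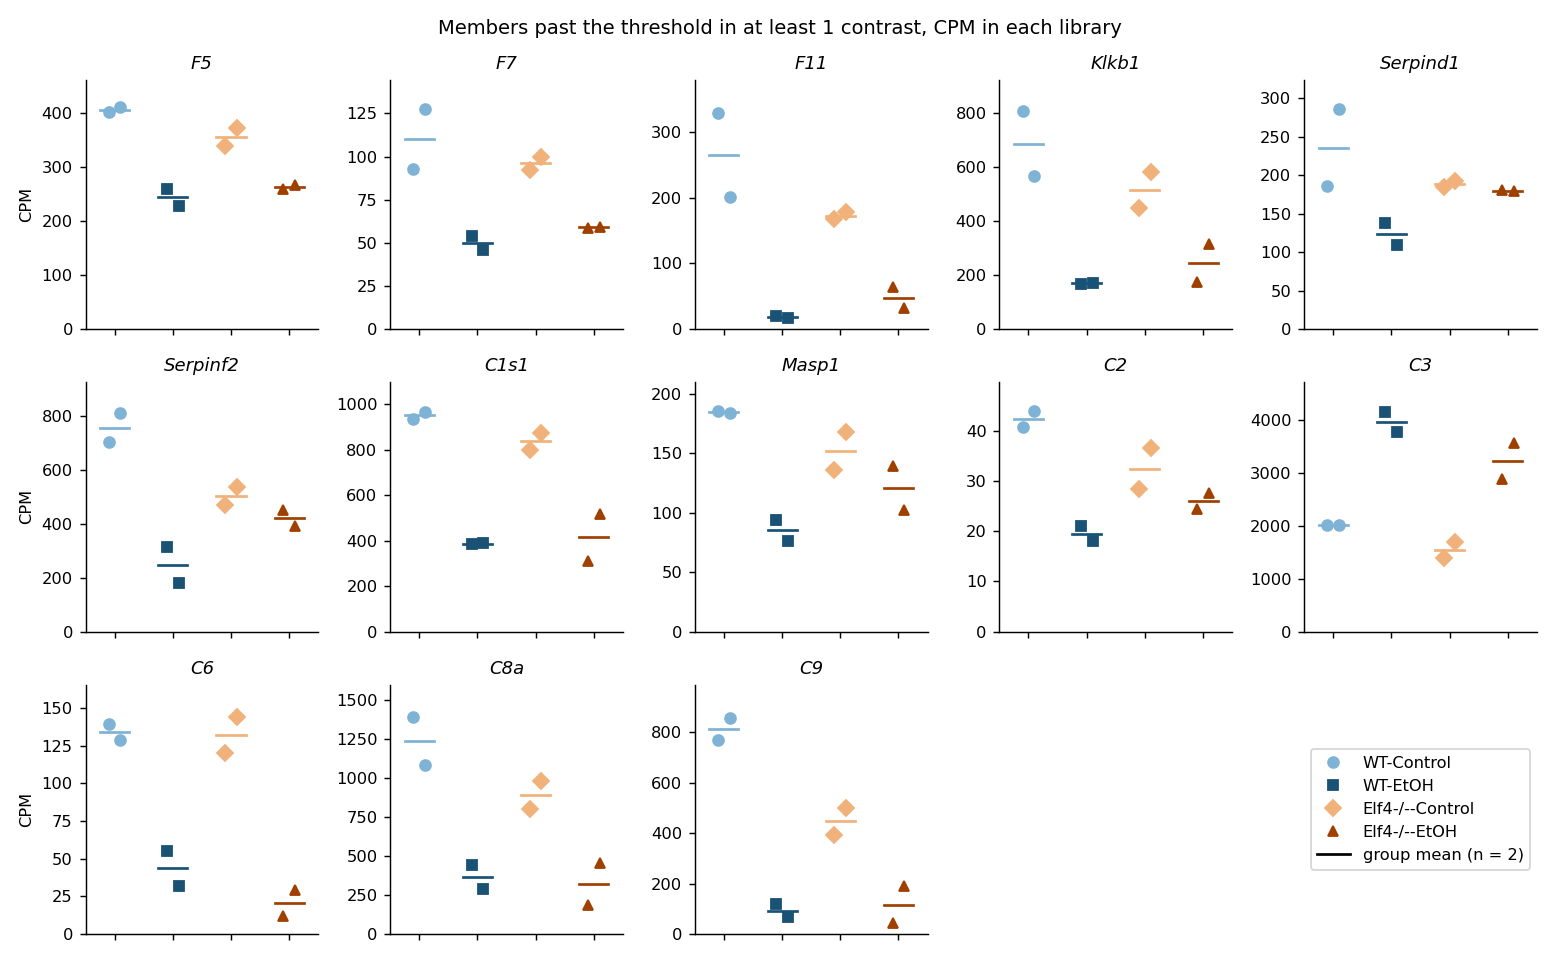
CPM in each library, with a linear axis from 0, for the 13 genes past the threshold in at least 1 contrast; points are libraries and bars group means (n = 2). *C3* is the only 1 of the 13 with higher EtOH than Control libraries. *F11*, *Klkb1*, *F7*, *Serpind1*, *Serpinf2*, *C2* and *Masp1* show lower WT-EtOH than *Elf4-/-*-EtOH libraries, and *C6* and *C3* show higher ones. The 13 passed the threshold through the same WT-EtOH values, so this order is no test of genotype. Of all 22 coagulation genes, 7 had both *Elf4-/-*-EtOH libraries above both WT-EtOH libraries and 3 had both below. For the 16 complement genes these counts were 4 and 3, and the share of all genes is not given.

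*C3*, on chromosome 17 at 57203970 to 57228136 on the minus strand, was the only member called higher after EtOH in WT. *C3* measured 2007 and 2022 CPM in WT-Control against 4151 and 3768 in WT-EtOH, and 1398 and 1702 CPM in *Elf4-/-*-Control against 2882 and 3568 in *Elf4-/-*-EtOH. The EtOH libraries of both genotypes lay above all Control libraries. The rise was 1.97-fold in WT (0.97 ± 0.27 SE, edgeR adjusted p = 0.0311), and the *Elf4-/-* value of 1.06 ± 0.27 SE was not called by edgeR (adjusted p = 0.0669) but was by DESeq2 (adjusted p = 0.000479). *C2*, the protease of the classical and lectin convertase, lies on the same chromosome at 34862604 to 34898265. *C2* measured 40.8 and 44.0 CPM in WT-Control against 21.0 and 18.1 in WT-EtOH, and 28.4 and 36.7 CPM in *Elf4-/-*-Control against 24.4 and 27.6 in *Elf4-/-*-EtOH. The Control libraries lay above the EtOH libraries in each genotype, with a fall of 2.17-fold in WT (-1.12 ± 0.20 SE, edgeR adjusted p = 0.00608) and -0.32 ± 0.20 SE in *Elf4-/-* (adjusted p = 0.389). *C4b*, the other convertase subunit, had -0.85 ± 0.29 SE in WT (adjusted p = 0.0584) and -0.11 ± 0.28 SE in *Elf4-/-*, and reads of its near-identical copy *C4a* may have been split between them. *Cfb* had 0.90 ± 0.67 SE and -0.70 ± 0.64 SE.

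At the start of the pathways, 2 of 5 genes were called in WT, both lower, as were 10.8% of all genes. *C1s1* encodes the protease C1s, which cuts C4 and C2, on chromosome 6 at 124530345 to 124542359 on the minus strand. *C1s1* measured 937.5 and 966 CPM in WT-Control against 384 and 389 in WT-EtOH, and 799.9 and 875 CPM in *Elf4-/-*-Control against 313 and 517 in *Elf4-/-*-EtOH. The diets did not overlap, with a fall of 2.46-fold in WT (-1.30 ± 0.27 SE, edgeR adjusted p = 0.0107) and -1.01 ± 0.27 SE in *Elf4-/-* (adjusted p = 0.0738). The antisense gene Gm16567 overlaps *C1s1* and its counts were 43.3% to 50.6% of those of *C1s1* in every library, and since the strand setting is not stated the reads of the pair cannot be told apart. *Masp1*, on chromosome 16 at 23449417 to 23520815 on the minus strand, encodes proteases of the lectin pathway. *Masp1* measured 185 and 184 CPM in WT-Control against 93.8 and 76.5 in WT-EtOH, and 136 and 168 CPM in *Elf4-/-*-Control against 139 and 102 in *Elf4-/-*-EtOH. The diets were apart in WT and overlapped in *Elf4-/-*, with -1.12 ± 0.23 SE (edgeR adjusted p = 0.00974) and -0.33 ± 0.23 SE (adjusted p = 0.437). *Masp2* had -0.49 and -0.77 without a call. Exons of *Tardbp* on the opposite strand cover 54.9% of its exon bases. Counts of *Tardbp* were 106% to 127% of those of *Masp2*, so the same caution applies. The lectins *Mbl1* (0.12 and 0.44) and *Mbl2* (0.47 and 0.36) lay above 0 in both genotypes without a call. The regulators *C4bp* (-0.44 and 0.08) and *Cfi* (-0.16 and -0.21), which break down C4b and C3b, were not called.

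In *Elf4-/-* livers, 1 of 16 complement genes, *C6*, was lower after EtOH and 0 were higher, against 1.18% and 1.71% of all genes tested, and the median was -0.39. Diet values were both negative for 11 genes, both positive for 3 and opposite for 2, and 10 of 16 were smaller in size in *Elf4-/-*. Here too the shares of all genes with these signs and sizes were not computed. Of the 16 genes, 8 had both EtOH libraries below both Control libraries in WT and again in *Elf4-/-*. Another 3 (*C3*, *Mbl1*, *Mbl2*) had both above in both genotypes, where 17.1% and 17.2% of all genes lay below and above in this way.

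The complement calls also changed when single libraries were left out, and there too the share of all genes called is not given. The sign of every called gene held, which their lack of overlap between the diets in CPM made nearly certain. *C9*, *C2* and *Masp1* lost their calls only without WT-EtOH replicate 2, *C1s1* without either WT-EtOH library, *C8a* without either of these or WT-Control replicate 1, and *C6* without WT-EtOH replicate 2 or either WT-Control library. *C3* kept its call only without *Elf4-/-*-EtOH replicate 1 or 2. With library totals alone the WT calls were 2 higher (*C3* and *Mbl2*) and 6 lower, and the median was -0.32 against 0.44 for all genes. In *Elf4-/-* the call of *C6* was lost without either *Elf4-/-*-Control library, and more genes were called without *Elf4-/-*-EtOH replicate 2. DESeq2 called 5, against 6.56% of the 12365 genes for which it gave an adjusted p.

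Beside these falls, markers of other liver cells were higher in WT-EtOH. The 6 Kupffer cell markers summed to 175 to 235 CPM in WT-Control and 530 to 591 in WT-EtOH, with 6 of 6 called higher, and to 160 to 172 in *Elf4-/-*-Control and 213 to 220.1 in *Elf4-/-*-EtOH, with 1 of 6 called. In WT, 6 of 6 endothelial and 4 of 6 stellate cell markers were also called higher, and the 6 hepatocyte markers, of which *Apoa1* was called lower, summed to 51810 to 71860 CPM in WT-Control and 31190 to 37550 in WT-EtOH. In *Elf4-/-*, 0 of 6 of each of these 3 lists were called. There the hepatocyte markers summed to 63500 to 71060 CPM with control diet and 41500 to 52400 with EtOH, the endothelial markers to 114 to 122 and 117 to 191, and the stellate cell markers to 84.3 to 126 and 196 to 321. The hepatocyte markers did not all follow their sum in *Elf4-/-*, where 3 log2 fold changes were positive and 3 negative, with a median of -0.05. In WT 0 were positive and 6 negative, with a median of -0.94. In bulk liver, fewer cells of a type and less RNA per cell cannot be told apart, and the part of cell composition and of the mitochondrial share in the member values was not tested. Of 26 other plasma protein genes of hepatocytes, 1 was higher and 2 were lower in WT, with a median of -0.21. That is 11.5% called, against 21.6% of all genes tested, of which 10.8% were higher and 10.8% lower. In *Elf4-/-* 0 were higher and 1 lower, against 1.71% and 1.18% of all genes, with a median of 0.01. The 26 include the hepatocyte markers *Alb*, *Apoa1*, *Ttr* and *Apob*, so the 2 lists are not separate.

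Of 32 complement genes tested outside the 16, 11 were higher and 4 lower in WT, where 10.8% of all genes were higher and 10.8% lower. Named by smallest adjusted p, the first 6 were *C1qa*, *C1qc*, *C1qb*, *Colec11*, *Cd55* and *Fcna*, and all of them rose. *C1qa*, *C1qb* and *C1qc* encode the chains of C1q, the recognition molecule of the classical pathway, which macrophages make. Their sum was 45.3 and 43.2 CPM in WT-Control against 198 and 161 in WT-EtOH, and 42.7 and 43.0 CPM in *Elf4-/-*-Control against 89.9 and 69.1 in *Elf4-/-*-EtOH. The EtOH libraries lay above all Control libraries, and those of WT above those of *Elf4-/-*. The WT log2 fold changes were 2.0 for *C1qa*, 2.05 for *C1qb* and 2.0 for *C1qc* (edgeR adjusted p = 0.00139, 0.00155 and 0.00147), and in *Elf4-/-* they were 0.78, 1.04 and 0.87, of which *C1qb* was called (adjusted p = 0.0489). The collectin gene *Colec11* had 2.46, the decay-accelerating factor gene *Cd55* had 2.47 and the ficolin gene *Fcna* had 2.42 in WT (edgeR adjusted p = 0.00188, 0.00293 and 0.00316), and *Fcna* was also called in *Elf4-/-* (1.92, adjusted p = 0.0276). *Hc*, which encodes C5 and was chosen after its value was seen, measured 1116 and 1098 CPM in WT-Control against 653 and 457.5 in WT-EtOH, with a value of -0.996 ± 0.31 SE (edgeR adjusted p = 0.0471) whose call held in 2 of the 8 fits that left out a library. In *Elf4-/-*, *Hc* measured 589 and 819 CPM with control diet and 371 and 610.0 with EtOH, which overlap (-0.52 ± 0.31 SE, adjusted p = 0.363). *C7*, another gene of the pore and also chosen after its values were seen, had very low levels and did not fall. *C7* measured 0.373 and 0.184 CPM in WT-Control against 1.26 and 0.917 in WT-EtOH. Its *Elf4-/-* values were 0.205 and 0.597 CPM with control diet and 0.478 and 1.06 with EtOH, which overlap.

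**Figure D4:**
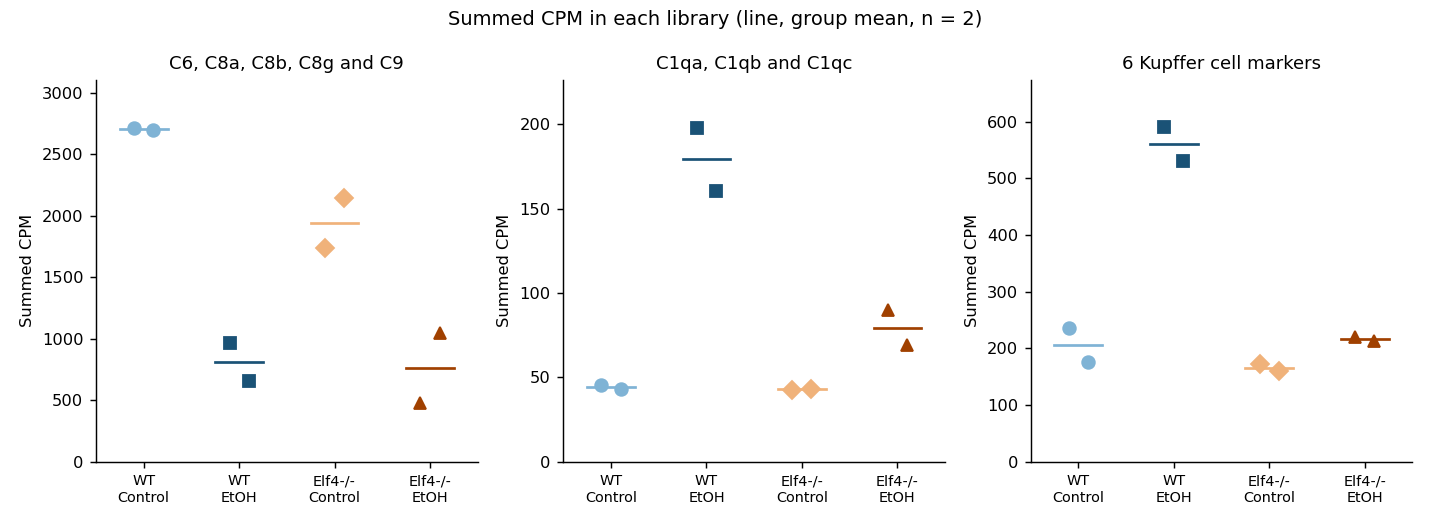
Summed CPM in each library of the 5 members of the terminal complement pathway, of the 3 C1q chains and of the 6 Kupffer cell markers, with points for libraries and bars for group means (n = 2). The terminal genes are lower in both EtOH groups, and the C1q chains and Kupffer cell markers are highest in WT-EtOH.

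Of 23 coagulation genes outside the 22, 6 were higher and 4 lower in WT, against 10.8% and 10.8% of all genes, and 1 was higher in *Elf4-/-*, against 1.71%. The first 6 by smallest adjusted p were *Nqo1*, *Proz*, *Furin*, *F8*, *Mcfd2* and *Thbd*. *Nqo1*, a quinone reductase that can recycle vitamin K, rose by 3.80 ± 0.60 SE in WT and 3.47 ± 0.57 SE in *Elf4-/-* on the log2 scale (edgeR adjusted p = 0.00364 and 0.0192). *F8*, the gene of factor VIII, and *Thbd*, the gene of thrombomodulin, are products of endothelial cells and rose by 1.89 and 2.55 in WT (edgeR adjusted p = 0.0150 and 0.0216) from under 3 CPM in WT-Control. *Mcfd2*, which helps to export factors V and VIII, rose by 0.79 (adjusted p = 0.0194). *Proz*, the gene of protein Z, fell by 1.34 and *Furin*, which trims precursors of clotting factors, fell by 1.09 (adjusted p = 0.00964 and 0.0143).

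The comparison of genotypes asked whether loss of intestinal *Elf4* moved these genes in the liver under either diet. Under EtOH, 0 of 22 coagulation and 0 of 16 complement genes were called by edgeR, where 0.143% of all genes tested were. At an unadjusted p under 0.05 there were 4 coagulation genes (*F11*, *Serpinf2* and *Serpind1* above WT, *Fga* below) and 1 complement gene (*C6*, below), against 10.5% of all genes. *F11* was the farthest from 0, at 1.39 ± 0.35 SE (edgeR adjusted p = 0.199). DESeq2 called *F11* (1.40, adjusted p = 0.00848), and called 1.47% of the 12365 genes for which it gave an adjusted p. Without *Elf4-/-*-EtOH replicate 2 edgeR called *F11* as well, at 1.80 (adjusted p = 0.00986), and *C6*. Medians were 0.07 for coagulation and -0.01 for complement, and 0.00 for all genes. With library totals alone these medians became -0.16 and -0.24, and that of all genes -0.23. Of the 6 Kupffer cell markers, 2 were called lower in *Elf4-/-*-EtOH than in WT-EtOH, and their part in the member values was not tested.

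Under control diet the counts were 0 and 0, against 0.0143% of all genes. DESeq2 also called 0 and 0, with 0.709% called of the 11008 genes for which it gave an adjusted p. At an unadjusted p under 0.05 there were *Fgb* (-0.98 ± 0.36 SE) and *C4b* (-0.80 ± 0.29 SE), both lower in *Elf4-/-*-Control, against 7.31% of all genes. The medians were -0.20 and -0.16, and that of all genes 0.01. With library totals alone, which moved the median of all genes by 0.23, these medians became 0.03 and 0.06.

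The absence of a call does not show equal levels. The 95% interval of the genotype difference lay within 1 log2 unit of 0 for 15 of 22 coagulation and 10 of 16 complement genes under EtOH, and for 16 and 12 under control diet, with a median half-width of 0.57 for coagulation and 0.60 for complement.

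**Figure D5:**
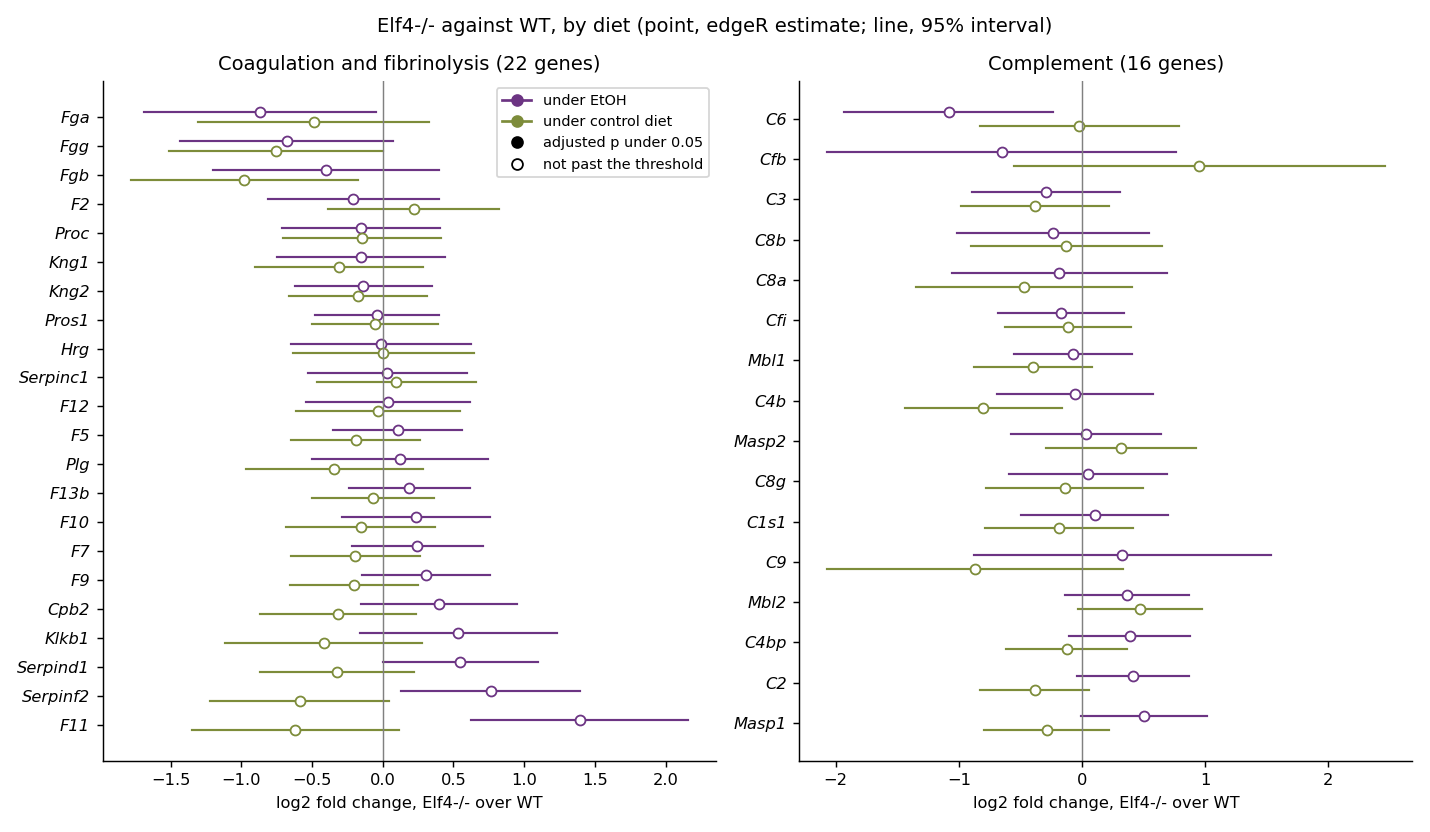
Log2 fold change of *Elf4-/-* over WT under EtOH and under control diet, with the edgeR estimate as a point and its 95% interval as a line; no point is filled, since none passed the threshold. Under EtOH, *F11* (1.39) lies farthest to the right among coagulation genes and *C6* (-1.08) farthest to the left among complement genes.

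The interaction asked whether the diet difference itself differed between genotypes. By edgeR it was called for 0 of 22 and 0 of 16 genes, as for 0 of all 13993 genes tested, or 0.0%. At an unadjusted p under 0.05 there were 3 coagulation genes and 2 complement genes, against 10.1% of all genes. These were *F11* at 2.01 ± 0.48 SE, *Serpinf2* at 1.35 ± 0.40 SE, *Serpind1* at 0.87 ± 0.35 SE, *C2* at 0.80 ± 0.29 SE and *Masp1* at 0.79 ± 0.32 SE (edgeR adjusted p = 0.268, 0.314, 0.442, 0.395 and 0.449), each positive, with the larger fall in WT. DESeq2 called *F11* alone (2.02, adjusted p = 0.00695), with 1.08% of its tested genes called, and edgeR called it without *Elf4-/-*-EtOH replicate 2 (2.42, adjusted p = 0.0146). For *C6* the sign was opposite, at -1.06 ± 0.53 SE (edgeR adjusted p = 0.543), and for *C9* the interval ran from -0.51 to 2.90. The 95% interval of the interaction had a median half-width of 0.81 for coagulation and 0.85 for complement genes.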

How the data were processed

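Libraries were made from 8 samples of liver RNA. In the study's methods, RNA was isolated with Trizol and read from both ends on a HiSeq instrument, reads passed FastQC, and the authors aligned them to mm10 (HISAT2, samtools), counted genes with HTSeq and tested with DESeq2. Versions, annotation and strand setting are not given in the sources used here. The deposited values are whole-number counts per gene symbol, not normalized, and all 8 columns were used.

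Groups came from the sample titles. Genes were filtered with filterByExpr, scaled by TMM and fitted in edgeR 4.0.16 (R 4.3.3) with a factor of 4 groups over all 8 libraries, so that 5 contrasts shared 1 estimate of the spread (biological coefficient of variation 22.7%). The quasi-likelihood test was adjusted by Benjamini-Hochberg over 13993 of 19267 genes, with a threshold of 0.05. SEs and 95% intervals are those of the fit. Exon lengths and positions came from GENCODE release M21 (GRCm38), where 18774 symbols (97.4%) matched. PCR copies were not separated, so counts are not all independent molecules.

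Every member was named. Levels in each library were given for members called in at least 1 contrast and for the gene of each system with the highest level per kb. Of the other coagulation and complement genes the 6 with the smallest adjusted p were named, with *Hc* and *C7* added afterwards. The members and lists were chosen with earlier results of these data known. Alternatives were DESeq2 1.42.0, DESeq2 size factors, library totals alone, no mitochondrial genes, no filter, only the libraries compared, a replicate block and leaving out each library.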

Additional observations from a re-analysis of the deposited data

How the results depend on the processing

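Of 225 values of called members under the alternatives, 0 changed sign, and of 2586 values of members without a call, 156 did. Each called member had its EtOH and Control libraries apart in CPM, and every alternative reused the same libraries. A change of sign was therefore hardly possible for them, and its absence is no test of the calls. Under DESeq2 the counts were 10 coagulation genes in WT, 2 in *Elf4-/-*, 1 in genotype under EtOH and 1 in the interaction, and 5 complement genes in *Elf4-/-*. In WT, DESeq2 called the 7 complement genes that edgeR called, and also *C4b* and *C8b*. With only the libraries compared, both counts in *Elf4-/-* were 0, and with no filter on low counts the complement count there was 2. With a library left out, the coagulation count ran from 2 to 10 in WT, 0 to 3 in *Elf4-/-*, 0 to 1 in genotype under EtOH and 0 to 1 in the interaction; the complement count ran from 0 to 9 in WT, 0 to 6 in *Elf4-/-* and 0 to 1 in genotype under EtOH. *F11* and *Klkb1* were called in WT in all 8 of these fits, and *F5* and *C3* in 2. A group left with 1 library was assumed to vary like the others. Outside the main edgeR fit and DESeq2, the share of all genes called is not given beside these counts. With a replicate block the counts were 6 and 7 in WT and 1 and 1 in *Elf4-/-*, as without it; same-numbered libraries did not deviate together (correlations of -0.11 to 0.06 between groups), so the numbers were not taken to pair them. The cause of each change was not tested. With 2 libraries a group, 95% intervals of the diet and genotype differences had median half-widths of 0.57 to 0.61 on the log2 scale, which limits what differences could be called.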
